A study of Mus musculus with 8 samples.

Results

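Differentiated mouse myotubes that received extracellular vesicles (EVs) from myogenic progenitor cells (MPCs) for 12 h were compared with myotubes that received EVs prepared from growth media for the same time. The comparison rests on 4 of the 8 libraries, 2 per treatment. It covers the 10950 of 35275 listed genes whose mean over these 4 libraries was at least 1 FPKM. That mean includes both treatments, so a gene can reach it through the group where it is high. Nefm did so, with means of 0.679 FPKM in the controls and 3.68 FPKM with MPC EVs. Scn4a was likewise under 1 FPKM in both controls. Among genes that fell, Colq, Ngfr, Mdfi, Mmp9, Ache, Smoc2, Fas, Mylk2 and Bmp2 were under 1 FPKM in both MPC EV libraries. They reached the minimum through the controls. In the control 12 h group, C57BL6/J myotubes carried the media EVs. In the MPC EV 12 h group, C57BL6/J myotubes carried EVs of proliferating primary MPCs. Both groups were made from myoblasts differentiated in horse serum until large myotubes had formed, and both received vesicles isolated with a polymer. The labels name only the source of the EVs as the difference between them. The remaining 4 libraries are the same treatments at 24 h, and they enter here through the estimate of spread and 1 test of the difference between times. Myotubes without any vesicles were not analysed here, so a gene raised by MPC EVs cannot be told apart from one lowered by the media EVs. The labels do not state separate cultures for the 2 libraries of a group, so each p-value rests on a spread between libraries that may be only technical.

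EVs are membrane particles that cells release and other cells take up, and they carry RNA, protein and lipid. MPCs are the proliferating descendants of satellite cells, the stem cells of skeletal muscle. Myotubes are the multinucleated cells formed when such progenitors leave the cell cycle and fuse. They assemble the contractile apparatus in a known order, in which embryonic and perinatal myosins precede the adult forms. NF-kB is a family of transcription factors held inactive by inhibitors of the IkB family. Several of these inhibitors are themselves NF-kB targets, so their transcripts are widely read as an index of the pathway.

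FPKM, fragments scaled to library size and gene length, is a level already divided by length. Changes are differences of log2(FPKM + 0.5), MPC EV minus control, with their standard error (SE), and they understate the change of low genes. A gene is said to rise, fall or pass when limma's Benjamini-Hochberg adjusted p was under 0.05. Depth was about 17320000 to 19850000 fragments per library at 12 h, read from the value of a single fragment in low genes. The 2 MPC EV libraries correlated at 0.995 across tested genes and the 2 controls at 0.946, because control replicate 2 departed from its partner. Among 963 transcripts both long and poor in GC, the median of control replicate 2 was -1.03 relative to the other 7 libraries, on the log2 scale. Among 976 short GC-rich transcripts that median was 0.24. Against control replicate 1 alone, the MPC EV libraries had medians of 0.01 and -0.20 for the same 2 classes, and -0.10 for all genes. Counts of genes below are therefore given with and without control replicate 2, and "in all 4 fits" means that a call was made with the values as deposited, without control replicate 2, with median-ratio scaling, and after correction for GC content and transcript length.

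**Figure D1:**
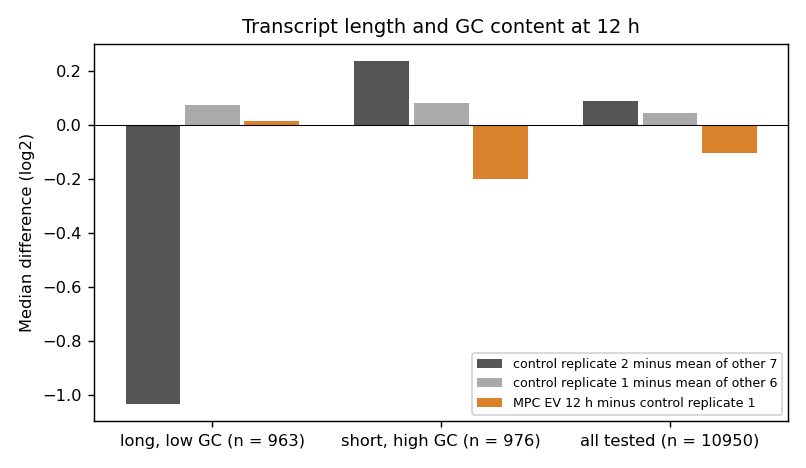
Median difference (log2) for long GC-poor transcripts (963), short GC-rich transcripts (976) and all 10950 tested genes, with a bar for control replicate 2 against the other 7 libraries, a bar for control replicate 1 against the 6 libraries other than both 12 h controls, and a bar for the mean of the MPC EV libraries against control replicate 1. The bar of control replicate 2 reaches -1.03 in the first class, where MPC EV minus control replicate 1 is 0.01.

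The libraries carried muscle transcripts at high level. All 14 markers of differentiated muscle were tested, and their summed level was 14440 and 16580 FPKM in the controls and 16730 and 16130 FPKM with MPC EVs. Markers of endothelium summed to 1.05 to 1.27 FPKM and those of macrophages and leukocytes to 1.88 to 3.45 FPKM, with 0 of 12 and 0 of 14 members reaching the 1 FPKM minimum. Of 16 fibroblast markers 4 were tested. Their list summed to 65.5 and 74.8 FPKM in the controls and 52.3 and 55.2 FPKM with MPC EVs, mostly through the actin-severing Gsn. Of the 4 tested, Gsn (-0.32 ± 0.08, not in all 4 fits) and Smoc2 (3.20 and 4.25 against 0.306 and 0.443 FPKM, in all 4 fits) fell, Cd248 and Ly6a did not pass, and the other 12 members, Dcn, Lum, Pi16 and Thy1 among them, had means under 1 FPKM. Markers of pericytes and smooth muscle summed to 1686 and 2013 FPKM in the controls and 1795 and 1720 FPKM with MPC EVs, led by Acta2, which differentiating myotubes also express. In bulk RNA, fewer cells of a type and less RNA per cell cannot be told apart.

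At 12 h, 480 genes were higher with MPC EVs (4.38% of those tested) and 1567 were lower (14.3%). Without control replicate 2 these were 638 (5.83%) and 1157 (10.6%). In all 4 fits, 292 genes were higher (2.67%) and 279 lower (2.55%), and 89 (0.813%) and 84 (0.767%) of these had moved over 2-fold. Over 2-fold as deposited alone were 94 (0.858%) and 95 (0.868%). Both MPC EV libraries lay above both controls in 1885 genes (17.2%) and below them in 4923 (45.0%), so a gap between the groups is common, above all downward. The balance of directions moved with the scaling. As deposited, 23.4% of calls were higher. Median-ratio scaling gave 58.1%, from 799 higher genes (7.3%) and 577 lower (5.27%). Quantile normalization gave 39.8%, from 516 (4.71%) and 780 (7.12%). Correcting for GC and length gave 55.9%, from 434 (3.98%) and 343 (3.14%) of 10911 genes. The median gene stood at -0.114 as deposited and 0.023 with median-ratio scaling, so small falls below are read against that shift. The calls also rest on a spread estimated over all 8 libraries. In a fit to the 4 libraries at 12 h alone limma called 0 genes (2580 had an unadjusted p under 0.05), and the counts ranged from 72 up and 146 down when MPC EV 12 h replicate 1 was left out to 2206 and 3487 when control 12 h replicate 1 was. A set of 60 higher and 111 lower genes passed in each of the 8 fits that left out 1 library. Genes named here by rule that belonged to that set included Lmcd1, Actn2, Myh3, Tcap, Sntb1, Colq, Ngfr, Nfkbia, Nfkbie and Mymx. For some named genes the naming rules themselves required or barred a pass without control 12 h replicate 2.

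**Figure D2:**
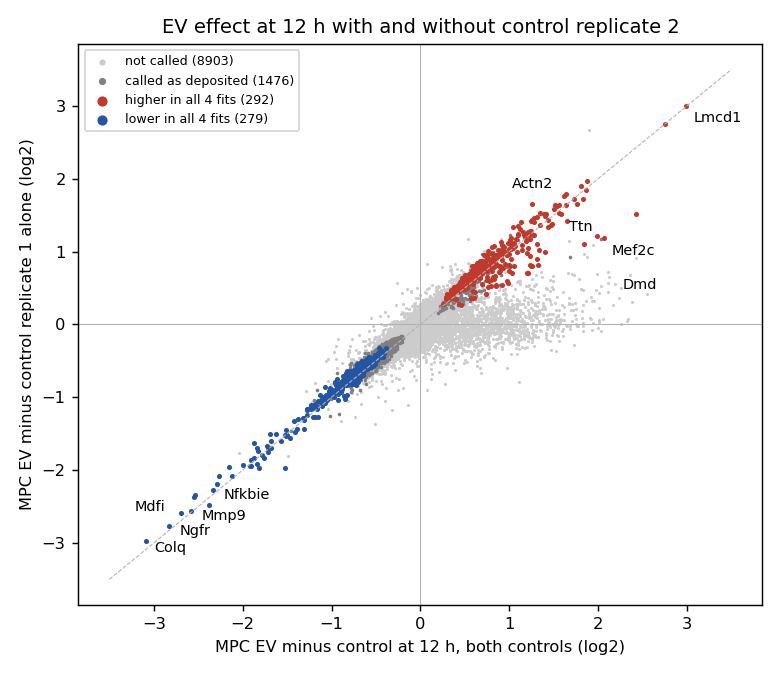
Change of each tested gene (log2, MPC EV minus control) against both controls on the horizontal axis and against control replicate 1 alone on the vertical axis, with 292 genes higher and 279 lower in all 4 fits in colour and genes called as deposited but not in all 4 fits in a darker grey than uncalled genes. Lmcd1, Actn2 and Colq lie near the diagonal, while Ttn and Mef2c have changes of 1.99 and 2.07 on the horizontal axis and 1.21 and 1.18 on the vertical axis, and Dmd, which did not pass, has 2.19 and 0.56.

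The largest rise among named genes was that of Lmcd1 (ENSMUSG00000057604, chromosome 6, 112273758 to 112330425 in GRCm38), a LIM-domain cofactor known from heart and muscle. It stood at 2.04 and 2.07 FPKM in the controls and at 21.3 and 18.5 FPKM with MPC EVs. The change was 2.99 ± 0.20 (SE, adjusted p = 0.00242), and 3.003 against control replicate 1 alone. Abra, an actin-binding protein of striated muscle, went from 1.00 and 1.20 to 5.01 and 5.14 FPKM (1.80 ± 0.15). Klhl13, an adaptor of a ubiquitin ligase, went from 6.49 and 4.57 to 19.1 and 17.4 FPKM. Nefm, a neurofilament subunit, had controls under 1 FPKM (0.769 and 0.589) and rose by 1.83 ± 0.15. Tm6sf1 rose by 1.88 ± 0.17. In each of these genes both MPC EV libraries lay above both controls, which the naming rule required. Zdbf2, an imprinted gene, was called at 2.42 ± 0.57 but differed between the controls (1.78 and 0.144 FPKM). Its rise was 1.51 against control replicate 1, and its call was lost when either MPC EV 12 h library or any 24 h library was left out.

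The largest fall among named genes was that of Colq (ENSMUSG00000057606, chromosome 14, 31523082 to 31591343), the collagen tail that anchors acetylcholinesterase at the synapse. It stood at 9.48 and 11.3 FPKM in the controls and at 0.886 and 0.666 FPKM with MPC EVs (-3.09 ± 0.21). Ngfr, the p75 neurotrophin receptor, stood at 4.99 and 5.54 FPKM against 0.268 and 0.348 FPKM (-2.83 ± 0.19, adjusted p = 0.00242). Mdfi encodes an inhibitor that binds myogenic factors of the MyoD family. It went from 4.68 and 5.48 to 0.371 and 0.351 FPKM (-2.69 ± 0.14, adjusted p = 0.00179), and the smallest control value was over 10 times the largest MPC EV value. Smoc2, a matricellular protein and 1 of the fibroblast markers, fell by 2.27 on the log2 scale and Lgr6, a receptor for R-spondins, by 1.87. Tmem176b and Tmem176a, membrane proteins encoded by overlapping neighbours, went from 122 and 139 to 25.7 and 26.8 FPKM and from 52.6 and 55.7 to 11.3 and 12.8 FPKM. The libraries were not strand-specific, so reads of that pair cannot be fully told apart.

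Myosin heavy chains rose together. Of 18 thick filament genes 14 were tested, 8 rose (6 in all 4 fits, 8 without control replicate 2) and 1 fell, with a median of 0.44. Myh3, the embryonic heavy chain (chromosome 11, 67078300 to 67102291), stood at 409 and 463 FPKM in the controls and at 1231 and 1234 FPKM with MPC EVs. The change was 1.4999 ± 0.11 (adjusted p = 0.00242). Myh8, the perinatal form, went from 70.7 and 81.2 to 209.7 and 196 FPKM, and Myh7, the slow form, from 24.0 and 29.5 to 82.0 and 83.2 FPKM. Myh1, a fast adult form, also rose, from 61.8 and 74.9 to 146.4 and 146.6 FPKM. In all 4 genes the MPC EV libraries lay above both controls, as in 17.2% of all tested genes. The heavy chain genes are similar enough in sequence that the authors' counting could share fragments between them. The myosin chaperone Unc45b rose by 0.91 ± 0.10 and the binding protein Mybph by 0.57 ± 0.10. The light chain Mylpf, at 4622 and 5688 against 5765 and 4919 FPKM, had a change of 0.05 ± 0.14. The member that fell was the light chain kinase Mylk2, from 1.72 and 2.05 to 0.783 and 0.739 FPKM. Without MPC EV 12 h replicate 1 or 2, 3 or 4 members were higher and 0 lower.

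The thin filament moved in part. Of 16 tested genes (18 listed) 6 rose, 5 of them in all 4 fits, and 1 fell, with a median of 0.13 and 6 and 1 without control replicate 2. Actc1, the cardiac actin that embryonic muscle uses, stood at 1576 and 1923 FPKM in the controls and 3276 and 3119 FPKM with MPC EVs (0.88 ± 0.12, adjusted p = 0.00947). Acta1, the skeletal actin, stood at 6843 and 7898 against 7815 and 7542 FPKM, with overlapping groups and a change of 0.06 ± 0.11 (adjusted p = 0.68), but it reached 0.40 (adjusted p = 0.049) after GC and length correction. The genes that rose beside Actc1 cap, seed or stabilise the filament. They were the pointed-end cap Tmod1 (0.83 ± 0.18), the nucleators Lmod2 (0.49 ± 0.06) and Lmod3 (0.43 ± 0.11), and the kelch proteins Klhl40 (0.39 ± 0.10) and Klhl41 (0.44 ± 0.06). As deposited each tested troponin had an adjusted p over 0.05, with changes from -0.09 for Tnnc1 to 0.26 for Tnni2. After GC and length correction Tnnt1, Tnnt3 and Tnni2 passed (0.38, 0.38 and 0.64), and 9 members of the list were higher, or 11 with quantile normalization. As deposited the tropomyosin Tpm3 fell by 0.29. Leaving out MPC EV 12 h replicate 1 or 2 left 0 members called.

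Proteins of the Z disc, the M band and the giant scaffolds showed the highest share of rises among the lists. Of 23 tested genes (26 listed) 15 rose, 12 in all 4 fits and 17 without control replicate 2, while 1 fell, and the median was 0.71. Actn2, the alpha-actinin that crosslinks thin filaments at the Z disc, stood at 36.3 and 44.8 FPKM in the controls and at 127.1 and 127.0 FPKM with MPC EVs (1.64 ± 0.12). Tcap, which joins titin to the Z disc, went from 7.77 and 7.76 to 27.0 and 23.6 FPKM (1.64 ± 0.11). The Z-disc adaptor Ldb3 went from 33.8 and 39.0 to 64.3 and 68.0 FPKM, and Flnc, the muscle filamin, rose by 0.74 ± 0.14. The M-band genes Myom1 and Myom3 rose by 0.53 ± 0.08 and 0.67 ± 0.11. Myom2, named after its value was seen, had 0.10 ± 0.09, and did not pass. The member that fell was Obsl1 (-0.47 ± 0.08), and not in all 4 fits. Without MPC EV 12 h replicate 1 or 2 the members higher were 5 or 4.

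The longest transcripts depend on which control is read. Ttn, the giant spring of the sarcomere, stood at 11.8 and 3.66 FPKM in the controls and 25.9 and 30.2 FPKM with MPC EVs, so its change of 1.99 ± 0.47 became 1.21 against control replicate 1. Neb, the ruler along the thin filament, stood at 30.8 and 8.93 against 66.7 and 72.8 FPKM, with changes of 2.03 and 1.17. Both MPC EV libraries exceeded the higher control in Ttn and Neb, as in 17.2% of all tested genes. Neb did not pass in limma with median-ratio scaling (adjusted p = 0.0537). The calls of Ttn and Neb were lost when either MPC EV 12 h library or any 24 h library was left out. Dmd, which encodes dystrophin, stood at 7.87 and 0.372 against 11.1 and 12.6 FPKM. Its change of 2.19 ± 0.98 did not pass (adjusted p = 0.153), and it was 0.56 against control replicate 1.

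**Figure D3:**
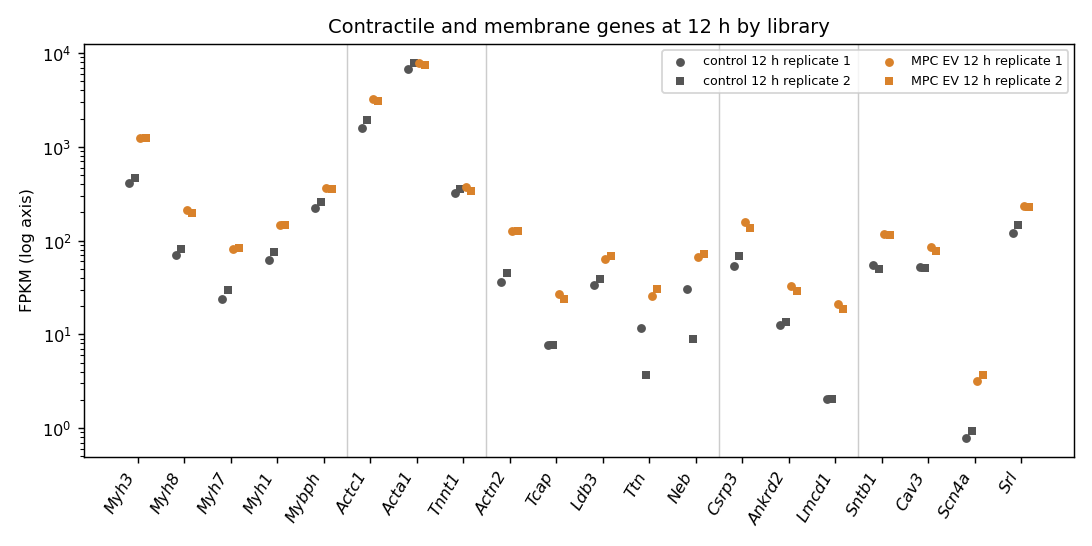
FPKM of 20 contractile and membrane genes (log axis) in the 2 control (grey) and 2 MPC EV (orange) libraries at 12 h, with circles for replicate 1 and squares for replicate 2 and lines between thick filament, thin filament, Z disc, stretch-responsive and membrane genes. Myh3 rises from 409 and 463 to 1231 and 1234 FPKM, Acta1 and Tnnt1 overlap between groups, and control replicate 2 stands far below replicate 1 in Ttn and Neb.

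Several genes that respond to mechanical load rose. Of 12 tested genes of that list (13 listed) 6 rose, 5 in all 4 fits and 6 without control replicate 2, and 0 fell. Ankrd23 and Ankrd2, ankyrin repeat proteins of the titin spring region, went from 19.04 and 22.6 to 67.1 and 53.9 FPKM and from 12.6 and 13.6 to 32.9 and 29.1 FPKM. Csrp3, the muscle LIM protein of the Z disc, went from 53.2 and 69.0 to 157.6 and 137.7 FPKM (1.28 ± 0.14). Rcan1, a calcineurin inhibitor that calcineurin induces, had -0.10 ± 0.10 with overlapping groups, and Ankrd1, named after its value was seen, had an adjusted p of 0.0797.

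Some genes of the membrane and of calcium handling rose. Of 18 tested genes of excitation-contraction coupling (22 listed) 6 rose, 5 in all 4 fits, and 9 without control replicate 2, with 0 lower and a median of 0.38. Scn4a, the sodium channel of the muscle action potential, stood at 0.777 and 0.939 FPKM in the controls and 3.18 and 3.69 FPKM with MPC EVs (1.53 ± 0.15, adjusted p = 0.00419). Hrc and Srl, calcium-binding proteins of the sarcoplasmic reticulum, rose by 0.91 ± 0.12 and 0.81 ± 0.10, and the calcium pump Atp2a1 by 0.54 ± 0.12. Ryr1, the calcium release channel, had 0.44 ± 0.12 and did not pass (adjusted p = 0.0553). Of 15 genes of the dystrophin complex and the sarcolemma 5 rose (4 in all 4 fits, 8 without control replicate 2) and 0 fell. Sntb1, a syntrophin of that complex, had little spread: 54.5 and 50.2 FPKM in the controls against 116.5 and 115.9 FPKM (1.14 ± 0.06, adjusted p = 0.00179). Utrn, the relative of dystrophin, rose by 0.83 ± 0.15 and the muscle caveolin Cav3 by 0.67 ± 0.12.

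The neuromuscular junction list held movements in both directions, with counts near the 4.38% higher and 14.3% lower over all genes. Of 13 tested genes (14 listed) 1 rose and 2 fell, all 3 of them in all 4 fits, and 3 rose and 2 fell without control replicate 2. Ache, the enzyme that clears acetylcholine, stood at 2.81 and 2.68 FPKM in the controls and 0.329 and 0.385 FPKM with MPC EVs (-1.92 ± 0.19, adjusted p = 0.00411), and it fell with its anchor Colq. Erbb3, a receptor for neuregulin, rose from 32.6 and 41.6 to 59.2 and 60.7 FPKM. The acetylcholine receptor subunit Chrna1 stood at 471 and 517 against 477 and 473 FPKM (-0.06 ± 0.06). Among the other tested receptor subunits, named after their values were seen, Chrnb1, Chrnd and Chrng had 0.08, 0.27 and 0.29 (adjusted p = 0.5, 0.0559 and 0.0602).

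Regulators of the muscle programme held calls in both directions, read here against 4.38% higher and 14.3% lower over all genes. Of 14 myogenic factors and their partners 1 rose and 4 fell, and 1 of each in all 4 fits, against 4 and 2 without control replicate 2. Myog stood at 2872 and 3290 FPKM in the controls and 2828 and 2799 FPKM with MPC EVs, and Myod1 at 615 and 664 against 549 and 574 FPKM. Neither passed (adjusted p = 0.294 and 0.0861). Mef2c, a factor of late muscle genes, stood at 42.2 and 12.0 against 99.3 and 93.3 FPKM. Its change was 2.07 ± 0.51, and 1.18 against control replicate 1. The Mef2c call was lost when either MPC EV 12 h library or any 24 h library was left out. Id2, an inhibitor of basic helix-loop-helix factors, went from 50.4 and 41.6 to 23.2 and 28.3 FPKM, and its relative Id3 from 156 and 171 to 106 and 109 FPKM. Of 10 tested fusion genes (14 listed) 3 rose and 1 fell, or 4 and 1 without control replicate 2. Mymx, the micropeptide that opens fusion pores, went from 194.8 and 197.8 to 87.7 and 86.4 FPKM (-1.17 ± 0.08, adjusted p = 0.00242). Its partner Mymk stood at 694 and 796 against 698 and 699.7 FPKM, with no gap between the groups. Of 13 tested genes of satellite cells and progenitors 3 rose and 4 fell, with the same counts without control replicate 2. Spry1, an inhibitor of growth factor signalling kept on in quiescent cells, rose by 1.28 ± 0.12 and the receptor Notch1 by 1.16 ± 0.18, while the Notch target Hey1 fell by 1.06. Pax7, the defining factor of satellite cells, stood at 4.29 and 5.08 against 5.05 and 6.45 FPKM and did not pass (adjusted p = 0.216).

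The NF-kB list had the largest number of falls in all 4 fits. Of 20 tested genes (24 listed) 15 fell, 11 in all 4 fits and 14 without control replicate 2, and 0 rose, against 14.3% lower over all genes. The median was -0.66. Windows of 250 bases before the annotated RefSeq start (build GRCm38.p6) are shown for the IkB genes Nfkbia and Nfkbie, with matches to the kB-like motif (GGG, any 3 bases, TTCC) in capitals, found on either strand.
Nfkbia (chr12:55492648-55492897, minus strand): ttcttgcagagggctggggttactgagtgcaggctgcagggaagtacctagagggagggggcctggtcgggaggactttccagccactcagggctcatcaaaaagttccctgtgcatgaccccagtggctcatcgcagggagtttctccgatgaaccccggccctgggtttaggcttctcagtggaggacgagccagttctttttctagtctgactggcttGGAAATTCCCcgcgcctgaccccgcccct
Nfkbie (chr17:45555450-45555699, plus strand): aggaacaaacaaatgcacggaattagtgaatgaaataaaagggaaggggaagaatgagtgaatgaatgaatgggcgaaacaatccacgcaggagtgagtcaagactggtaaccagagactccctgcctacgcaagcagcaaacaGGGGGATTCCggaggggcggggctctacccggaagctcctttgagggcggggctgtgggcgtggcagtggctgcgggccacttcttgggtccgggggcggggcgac
The capitals start at -29 in Nfkbia and -106 in Nfkbie relative to the start. Over windows of 300 bases (250 before and 50 after each start), that motif was present in 1704 of 27018 genes in the RefSeq table (6.31%). Among the 8424 tested genes with a promoter in it the share was 7.0%. The motif was present in 8 of the 16 tested NF-kB list genes with a promoter in it. Of these 8, Nfkb2, Nfkbia, Nfkbie, Tnfaip3, Tnip1 and Traf2 fell, while Chuk and Cyld did not pass. Over the whole list 15 of 20 fell, and whether a match goes with a fall was not tested. A match describes letters in a window and shows no binding.

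Nfkbia, the inhibitor IkB-alpha, stood at 32.2 and 34.1 FPKM in the controls and 7.58 and 9.44 FPKM with MPC EVs (-1.91 ± 0.12, adjusted p = 0.00242). Nfkbie, the inhibitor IkB-epsilon, went from 19.7 and 21.4 to 3.41 and 3.94 FPKM (-2.33 ± 0.12, adjusted p = 0.00179). Bcl3, a nuclear IkB protein, went from 8.48 and 11.1 to 1.31 and 1.18 FPKM. Control and MPC EV libraries were far apart in all 3. Members linked to the non-canonical arm also fell: the kinase Map3k14 from 13.8 and 14.5 to 4.88 and 5.91 FPKM, the subunit Nfkb2 from 71.6 and 81.0 to 31.2 and 32.8 FPKM, and its partner Relb from 14.7 and 16.3 to 8.64 and 8.58 FPKM. Of 9 tested Traf genes, adaptors of TNF receptors, 3 fell, against 14.3% lower over all genes. Among these and the ligases that bind them, Traf1 stood at -1.76 ± 0.19, Traf2 at -1.09 ± 0.15 and the ubiquitin ligase Birc3 at -1.84 ± 0.16. Subunits of the canonical arm changed less. Rela went from 29.5 and 30.9 to 22.8 and 24.8 FPKM (-0.34 ± 0.07, not in all 4 fits), and Nfkb1, named after its value was seen, did not pass (-0.25 ± 0.09, adjusted p = 0.103). Without MPC EV 12 h replicate 1 or 2, 7 or 8 of the 20 were lower.

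Several secreted and surface products that NF-kB is known to induce fell. Of 24 listed chemokines and cytokines 8 reached 1 FPKM, 4 fell (3 in all 4 fits, 4 without control replicate 2) and 0 rose. The monocyte attractants Ccl2 and Ccl7 went from 9.35 and 7.40 to 1.84 and 2.19 FPKM and from 6.13 and 6.60 to 1.15 and 2.11 FPKM. Lif, a cytokine of the IL-6 family, fell by 1.11. Of 10 tested adhesion molecules and TNF receptors (15 listed) 6 fell and 1 rose, or 5 and 1 without control replicate 2. The death receptor Fas went from 3.23 and 1.53 to 0.505 and 0.404 FPKM, and Vcam1, an adhesion molecule of progenitors and vessels, fell by 0.56. Selp, P-selectin, which stood at 8.71 and 11.7 FPKM in the controls, fell by 2.16. Thbd, the thrombin receptor thrombomodulin, went the other way, from 3.93 and 4.21 to 8.76 and 12.1 FPKM.

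Genes of antigen presentation were lower as well. Of 27 listed genes of MHC class I, the immunoproteasome and the interferon response 12 were tested, 10 fell (6 in all 4 fits, 9 without control replicate 2) and 0 rose, with a median of -0.72. H2-K1 and H2-D1, class I heavy chains, went from 57.9 and 64.5 to 36.7 and 37.4 FPKM and from 26.03 and 32.7 to 15.5 and 16.1 FPKM, and these are related genes that may share fragments. Tapbp, which loads peptide on class I, fell by 1.06 and Psme2, a proteasome activator, by 0.73. Irf1, a factor that activates class I genes, went from 3.87 and 4.10 to 1.27 and 2.04 FPKM. B2m, the light chain of class I, had a smaller fall (-0.35 ± 0.09), and not in all 4 fits. Most interferon-induced genes on the list, such as Isg15, Ifit1 and Mx1, were under 1 FPKM. Of 27 standard proteasome subunits 7 fell and 0 rose, and 0 in all 4 fits, against 14.3% lower over all genes as deposited.

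**Figure D4:**
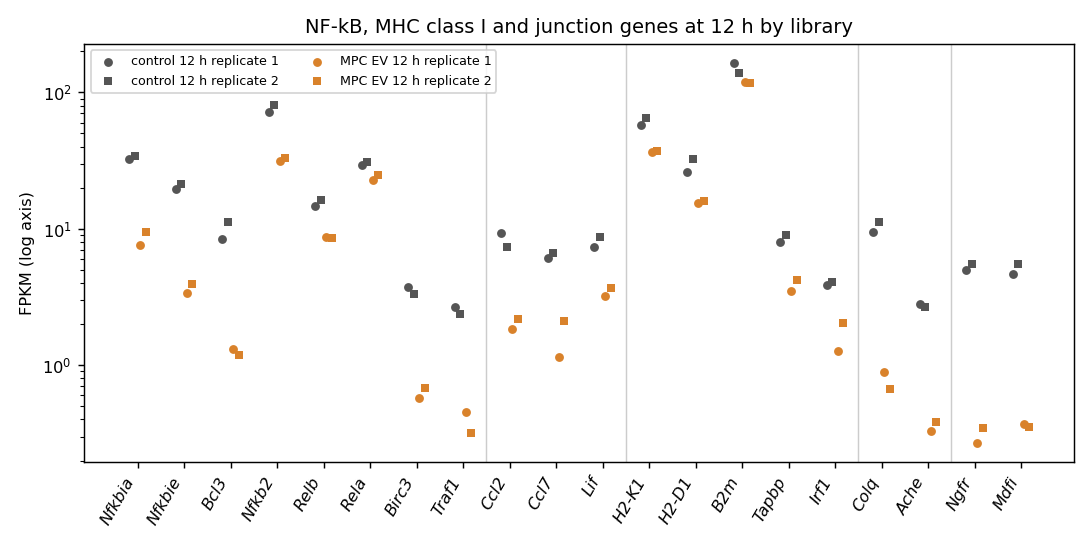
FPKM of 20 genes (log axis) in the 2 control (grey) and 2 MPC EV (orange) libraries at 12 h, with circles for replicate 1 and squares for replicate 2 and lines between NF-kB, chemokine and cytokine, MHC class I, junction and other genes. The genes plotted were chosen with results of these data known. The MPC EV libraries lie below both controls in every gene plotted, as they do in 45.0% of all tested genes. The gap is largest in Colq, Ngfr and Mdfi and smallest in Rela and B2m.

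Some feedback genes of ERK signalling rose. Of 18 genes of ERK feedback and ETS factors 5 rose (4 in all 4 fits, 6 without control replicate 2) and 0 fell, with a median of 0.30. Dusp6, the phosphatase that inactivates ERK, stood at 5.40 and 6.45 FPKM in the controls and 16.02 and 16.6 FPKM with MPC EVs (1.39 ± 0.10, adjusted p = 0.00242). Dusp5, the nuclear ERK phosphatase, rose by 0.81, and Errfi1, an inhibitor of EGF receptors, went from 22.9 and 25.8 to 39.5 and 45.4 FPKM. The ETS factor Etv4 did not pass (0.40 ± 0.13, adjusted p = 0.0742). Of 21 tested immediate early genes (24 listed) 2 rose and 5 fell (against 14.3% lower over all genes), with 1 and 2 in all 4 fits and 2 and 3 without control replicate 2. Junb, a subunit of AP-1, went from 86.0 and 83.7 to 25.8 and 33.8 FPKM, and the orphan receptor Nr4a1 from 2.05 and 1.98 to 4.41 and 4.43 FPKM. Fos and Egr1 had overlapping groups and changes of 0.20 ± 0.21 and -0.12 ± 0.14.

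In the TGF-beta and BMP pathway the ligands moved in opposite directions. Of 22 tested genes (27 listed) 9 fell (4 in all 4 fits) and 1 rose, and 8 and 1 without control replicate 2. Tgfb3 rose from 38.1 and 43.1 to 72.8 and 70.1 FPKM (0.81 ± 0.07, adjusted p = 0.00372), while Tgfb2 went from 5.34 and 5.51 to 2.85 and 3.46 FPKM. The feedback inhibitor Smad7 went from 21.1 and 22.4 to 10.8 and 12.8 FPKM. Ltbp2, a relative of the proteins that store latent TGF-beta, fell by 1.84. Of 13 tested collagens (20 listed) 5 fell (4 in all 4 fits, 5 without control replicate 2) and 0 rose, and Col1a1 went from 8.08 and 8.05 to 3.40 and 5.002 FPKM. The fibroblast marker Smoc2 fell beside these, and its list's part in the falls of collagens and Islr was not tested. Among 19 tested matrix glycoproteins 3 rose and 2 fell, with the same counts without control replicate 2. The shares over all genes were 4.38% higher and 14.3% lower. Tnc, tenascin C, rose from 35.1 and 38.8 to 54.4 and 75.8 FPKM. Spp1, osteopontin, stood at 864.7 and 454.6 against 1455 and 1548 FPKM, and Islr, a stromal gene, fell from 3.65 and 4.84 to 1.04 and 0.882 FPKM.

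Of 23 tested proteases and inhibitors (29 listed) 3 rose and 4 fell, against 4 and 4 without control replicate 2. Over all genes 4.38% were higher and 14.3% lower, so the number of falls is near that share. Mmp9, a gelatinase induced in inflamed muscle, went from 5.40 and 5.60 to 0.436 and 0.567 FPKM (-2.59 ± 0.15, adjusted p = 0.00241). Plau and Plaur, urokinase and its receptor, rose by 0.83 ± 0.10 and 0.25 ± 0.07. Mmp2, the other gelatinase, had -0.36 ± 0.14 and did not pass (adjusted p = 0.104).

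**Figure D5:**
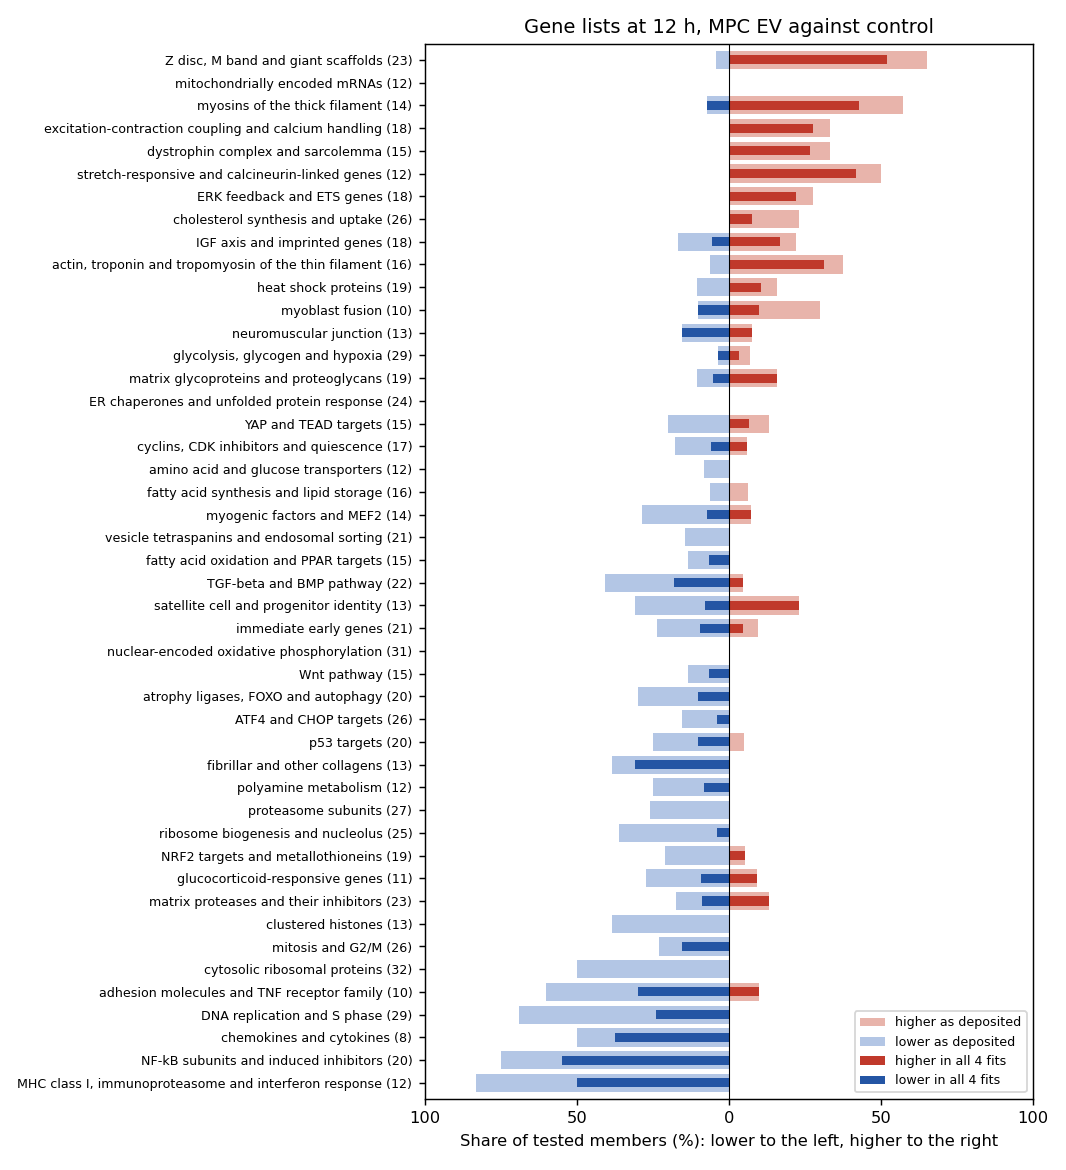
Share of tested members (%) that were lower (left, blue) or higher (right, red) for each list with at least 8 tested genes, as deposited (light) and in all 4 fits (dark), with the number tested in brackets and lists ordered by their median change. The Z disc list has 15 of 23 higher and the NF-kB list 15 of 20 lower, while the ribosomal protein list has 16 of 32 lower as deposited and 0 in all 4 fits.

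Many list counts depend on both MPC EV libraries. Without replicate 1 or 2 of MPC EV 12 h, the lower members were 4 or 5 of the MHC class I list, 1 and 1 of chemokines, 1 or 2 of adhesion molecules, 3 or 6 of the TGF-beta list and 0 or 2 of the collagens. The higher members were 3 or 4 of the stretch list, 3 or 2 of ERK feedback, 1 or 2 of excitation-contraction coupling, 1 and 1 of the dystrophin complex, and 0 and 0 of cholesterol synthesis. Without control 12 h replicate 1, by contrast, more members than as deposited were lower in several lists. These were ribosomal proteins, proteasome subunits, ATF4 and CHOP targets, mitosis and oxidative phosphorylation. More mitochondrial mRNAs and mitosis genes were higher. That fit also called more genes in both directions over all tested genes, so larger counts are not particular to these lists. These lists are among those whose counts turn on which control is read.

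Genes of DNA replication were lower with MPC EVs. The share lower over all genes was 14.3% as deposited, against which the count of mitosis genes is also read. Of 29 tested genes of DNA replication (30 listed) 20 fell and 0 rose, with 13 lower without control replicate 2 and 7 in all 4 fits, and a median of -0.47. Rrm2, the ribonucleotide reductase subunit of S phase, went from 90.0 and 94.3 to 33.3 and 42.7 FPKM (-1.28 ± 0.12, adjusted p = 0.00395). Mcm6, a subunit of the replicative helicase, went from 14.6 and 14.0 to 8.63 and 9.15 FPKM, and the thymidine kinase Tk1 from 6.93 and 7.53 to 3.94 and 4.60 FPKM. Of 26 tested genes of mitosis (30 listed) 6 fell (4 in all 4 fits, 6 without control replicate 2) and 0 rose, and Cdk1, the mitotic kinase, went from 8.03 and 7.66 to 5.08 and 4.59 FPKM. Mki67 and Top2a, long proliferation markers, were low in control replicate 2 (0.14 and 3.03 FPKM against 3.16 and 11.7 FPKM in replicate 1) and did not pass. The cyclin D3 gene Ccnd3, which rises in differentiating muscle, went from 70.8 and 77.4 to 100.8 and 97.4 FPKM, and its kinase Cdk4 fell by 0.51. The CDK inhibitor Cdkn1a was high in all libraries, with 1292 and 1475 against 1344 and 1349 FPKM. Without MPC EV 12 h replicate 1 or 2, 2 or 3 DNA replication genes were lower.

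A few turnover and stress genes fell. Their list counts are read against 4.38% higher and 14.3% lower over all genes as deposited. Trim63, the atrophy ligase MuRF1, went from 80.6 and 94.2 to 48.0 and 43.5 FPKM (-0.92 ± 0.09, adjusted p = 0.00485), whereas the other atrophy ligase, Fbxo32, had 0.02 ± 0.16. Of that list's 20 tested genes 6 fell and 0 rose (2 in all 4 fits), and 5 fell and 1 rose without control replicate 2. Pdk4, the kinase that shuts carbohydrate out of mitochondria, went from 25.6 and 24.97 to 12.1 and 14.0 FPKM. Of 20 tested p53 targets 5 fell and 1 rose, and 4 and 0 without control replicate 2. The gene Trp53 itself went from 47.0 and 54.1 to 29.1 and 30.5 FPKM and Plk2 from 197 and 227 to 109 and 122 FPKM, while Cdkn1a and Mdm2 (-0.04 ± 0.05) did not pass. Of 24 genes of ER chaperones and the unfolded protein response 0 passed as deposited and 1 was higher without control replicate 2. Of 26 ATF4 and CHOP targets 0 rose and 4 fell, near the 14.3% of all genes, 1 of them, the stress cofactor Nupr1, in all 4 fits, and without control replicate 2 the counts were 4 higher and 1 lower.

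Counts in the metabolic lists depended on the fit. As deposited they are read against 4.38% higher and 14.3% lower over all genes. Of 31 nuclear-encoded genes of oxidative phosphorylation 0 passed as deposited. Without control replicate 1 some were lower, in a fit that called more genes in both directions over all tested genes. Of 26 genes of cholesterol synthesis and uptake 6 rose and 0 fell, with 12 higher without control replicate 2 and 2, the reductase Dhcr7 and the sterol carrier Stard4, in all 4 fits. Dhcr7 went from 11.02 and 13.01 to 17.99 and 17.7 FPKM, and Hmgcs1, an early enzyme of the pathway, rose by 0.55 ± 0.09 as deposited. Of 29 tested genes of glycolysis, glycogen and hypoxia 2 rose and 1 fell as deposited. The higher members were 10 without control replicate 2, 12 with median-ratio scaling and 9 after GC and length correction. The glycogen phosphorylase Pygm rose by 0.43 ± 0.10, and Egln3, an oxygen sensor, went from 58.7 and 62.9 to 29.1 and 31.3 FPKM. Of 32 ribosomal protein genes 16 fell as deposited, with a median of -0.37, but 2 without control replicate 2, 0 with median-ratio scaling and 0 in all 4 fits. The 12 tested mitochondrial mRNAs had a median of 0.49 as deposited and -0.13 without control replicate 2, and 0 passed.

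In the promoters of the 3 sarcomere lists, 2 motifs of muscle factors are shown in the genes described above. The window of Actc1 holds a CArG box, the site of serum response factor, and that of Ttn holds a site of MEF2 factors, in capitals.
Actc1 (chr2:114052876-114053125, minus strand): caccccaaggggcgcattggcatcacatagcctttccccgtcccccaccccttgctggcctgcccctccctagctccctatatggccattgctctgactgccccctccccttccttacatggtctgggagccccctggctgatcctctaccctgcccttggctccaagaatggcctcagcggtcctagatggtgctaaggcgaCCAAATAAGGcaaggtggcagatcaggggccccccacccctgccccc
Ttn (chr2:76982548-76982797, minus strand): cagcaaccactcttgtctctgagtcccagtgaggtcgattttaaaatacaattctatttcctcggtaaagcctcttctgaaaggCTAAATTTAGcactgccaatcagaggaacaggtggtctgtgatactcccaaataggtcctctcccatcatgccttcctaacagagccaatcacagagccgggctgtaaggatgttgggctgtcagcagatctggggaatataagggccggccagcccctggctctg
The capitals start at -47 in Actc1 and -166 in Ttn. Both motifs were searched on both strands, and matches of different motifs were counted separately where they overlapped. The CArG box was found in 5 of 41 tested sarcomere genes with a RefSeq promoter (12.2%), namely Acta1, Actc1, Ldb3, Myl3 and Myom1. The share was 1.81% of all 27018 genes and 1.66% of the 8424 tested genes with a promoter. The MEF2 site was found in 5 of 41 (12.2%, against 0.637% of all and 0.641% of tested genes), namely Klhl41, Myoz2, Synpo2l, Ttn and Xirp2. The E-box CAGCTG, which myogenic factors bind, was found in 18 of 41 (43.9%, against 18.3% of all and 17.7% of tested genes). Acta1 holds a CArG box and an E-box and did not pass as deposited. Neither did Myl3, which holds a CArG box, nor Myoz2, Synpo2l and Xirp2, which hold a MEF2 site. Actc1, Ldb3, Myom1, Klhl41 and Ttn rose, so both printed promoters are of genes that rose. Whether a match goes with a rise was not tested.

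The effect at 12 h was set against the effect at 24 h, which has its own controls. The test of the difference called 0 genes in limma (0.0% of 10950, 2015 at an unadjusted p under 0.05). The lowest adjusted p, 0.0758, was shared by Gal and Odc1 among the genes named. Gal, the neuropeptide galanin, stood at 48.4 and 47.2 FPKM in controls and 15.4 and 17.8 FPKM with MPC EVs at 12 h (-1.50 ± 0.16), and at 4.42 and 4.80 against 14.5 and 10.5 FPKM at 24 h. Both effects passed in limma in their own right (adjusted p = 0.00522 and 0.0114) with opposite signs, but the difference between them did not pass. Both groups stood lower at 24 h than at 12 h, the controls by more. Odc1, the first enzyme of polyamine synthesis, stood at 210 and 227 against 182 and 195 FPKM at 12 h and had a change of 0.80 at 24 h. Nfkbie had a change of -2.33 at 12 h and -0.79 at 24 h (difference 1.54, adjusted p = 0.0956), with controls that stood at 19.7 and 21.4 FPKM at 12 h and 4.44 and 4.32 FPKM at 24 h. Mcm6 had -0.66 and 0.20 and Dpy30, a subunit of histone methyltransferases, -0.77 and 0.06 (adjusted p = 0.0956 for both differences). Mpc1, a subunit of the mitochondrial pyruvate carrier, had 0.78 at 12 h and -0.36 at 24 h (adjusted p = 0.0956). Without control 12 h replicate 2 the difference passed in 3 genes, Gal, Odc1 and 1700012B09Rik, without MPC EV 24 h replicate 2 in 1, Gal, and without control 12 h replicate 1 in 3709.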

How the data were processed

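RNA of 8 myotube libraries was sequenced, and the 4 libraries at 12 h are compared here. The values are FPKM as the authors deposited them, for 35275 genes, and no scaling between libraries is stated. HISAT2, DESeq2 (as version 2) and mm10 are listed in the submitters' processing notes. For the counting tool and annotation release, the sources used here give no name. Per the labels' protocols the libraries were not strand-specific. Symbols came from GENCODE vM21 (34490 IDs matched).

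The test was limma's (version 3.58.1, R 4.3.3), applied to log2(FPKM + 0.5) of genes whose 12 h mean reached 1 FPKM (a mean per group over all 8 libraries, 4 residual degrees of freedom, eBayes with an intensity trend, two-sided, Benjamini-Hochberg, threshold 0.05). The GC and length correction used 10911 genes (99.6%). Tables used Python 3.11.15, numpy 2.4.6, pandas 2.3.3 and matplotlib 3.10.9, and the steps were tested on simulated data. Fragment counts were not recovered, so no count test was run. The members and lists were chosen with earlier results of these data known. Named genes are the 15 largest rises and falls that passed with and without control 12 h replicate 2. These had a mean of at least 2 FPKM and groups apart, and predicted genes were left out. Added were up to 3 members per list with the smallest adjusted p, 3 anchors per list, and the 10 smallest p of the difference between times. The 8 genes of highest mean FPKM that passed as deposited but not without control 12 h replicate 2 were named too. Other genes named were chosen after their values were seen. Alternatives were other pseudocounts, filters, scalings, a replicate term and each library left out. Some genes are not reported here.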

Additional observations from a re-analysis of the deposited data

How the results depend on the processing

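Against 480 higher and 1567 lower genes, the counts were 799 and 577 with median-ratio scaling. The lower count was 780 with quantile normalization, 343 after GC and length correction and 1017 with no filter on low values. Fitted to the 12 h libraries alone, limma called 0 and 0 (2580 genes at an unadjusted p under 0.05); the spread then has fewer samples behind it. Leaving out 1 library gave 72 to 2206 higher and 146 to 3487 lower, with the lone library left in a group assumed to vary like the others. The lowest counts came without MPC EV 12 h replicate 1 (72 and 146) and replicate 2 (75 and 201). Without the libraries at 24 h they were 227 and 552, 235 and 575, 210 and 486, and 210 and 494. The difference between times was called in 0 to 3709 genes over the same fits. The labels do not say whether replicate numbers pair the samples. The correlation of deviations was -0.0121 between control and MPC EV at 12 h. Over all pairs of groups it ran from -0.617 to 0.242, and with 2 libraries per group it cannot decide on pairing. A fit with the replicate block called 301 higher and 849 lower. Other pseudocounts, filters at 0.1, 1 (over 8 libraries) and 5 FPKM and no intensity trend kept both counts within 1.5 times.

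Of the 169 named genes that passed, 133 did so with median-ratio scaling and 102 after GC and length correction. A count without control 12 h replicate 2 would be fixed in part by the naming rules. The largest changes had to pass that fit, and other genes were named for failing it. The GC and length correction turned the sign of 9 small falls: Id1 0.0208, Rpl8 0.0915, Mt2 0.0713, Srm 0.0718, H2afx 0.0341, Rplp1 0.136, Rps2 0.0073, Rps14 0.0136 and Mcrip2 0.22. The cause was not tested. No count-based precision can be given for single genes, since fragments were not recovered, and depth limits low genes most.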

Other observations

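Genes in these paragraphs were chosen after their values were seen, and their families were picked by symbol. Semaphorins, guidance cues that axons, vessels and muscle use, were mostly higher with MPC EVs. Of 12 tested, 7 rose (6 in all 4 fits) and 1, Sema6a, fell, against 4.38% higher over all genes. Sema3b went from 10.6 and 10.9 to 23.3 and 22.8 FPKM (1.06 ± 0.07, adjusted p = 0.00242) and Sema7a from 14.7 and 14.4 to 22.8 and 26.9 FPKM. Sema3e, a secreted ligand of a plexin, stood at 12.3 and 6.42 against 20.8 and 23.0 FPKM, and its rise was 0.81 against control replicate 1. Of 7 plexins, the receptors, 2 rose and 1 fell, against 4.38% higher and 14.3% lower over all genes. Plxna2 went from 7.29 and 8.66 to 16.6 and 16.4 FPKM. Both chains of the interferon gamma receptor fell, Ifngr1 from 16.3 and 17.7 to 8.34 and 8.004 FPKM and Ifngr2 from 15.9 and 17.4 to 7.54 and 8.46 FPKM.

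Secreted growth factors moved both ways, each in all 4 fits. Vegfc, a factor of lymphatic vessels, went from 17.7 and 16.9 to 4.97 and 4.87 FPKM (-1.72 ± 0.10, adjusted p = 0.00242). Bmp2, a ligand of the BMP pathway, went from 3.96 and 3.85 to 0.796 and 0.951 FPKM, and Gdnf, a trophic factor of motor neurons, from 5.66 and 6.09 to 2.25 and 2.63 FPKM. Fgf5 and the peptide Apln rose, from 1.09 and 1.53 to 4.41 and 3.77 FPKM and from 1.24 and 1.55 to 4.07 and 4.10 FPKM. Rrad, a small GTPase that restrains calcium channels, went from 47.2 and 48.6 to 13.7 and 14.8 FPKM, and Ass1, an enzyme of arginine synthesis, from 95.3 and 105.3 to 40.6 and 46.6 FPKM. On chromosome 14, the granule protease genes Gzme, Gzmd and Mcpt8 rose by 1.76, 1.73 and 1.56, and Mcpt8 stood at 8.18 and 7.90 against 24.8 and 24.4 FPKM. Gzme and Gzmd are related neighbours between which fragments may be shared, and leukocyte markers summed to 1.88 to 3.45 FPKM in these libraries.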
